A study of Mus musculus with 6 samples.

Results

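The cytosolic heat shock genes described here are Hspa1a, Hspa1b, Hspa8, Hsph1, Hsp90aa1, Hspb1, Hspb8, Dnajb1, Bag3 and Hsf1, taken as every non-control array probe that carries one of these 10 names. Probes were found for 9 of the 10 genes, 12 probes in all of the 55681 on the array, and no probe was named Hspa1b. RNA came from 3T3 cells, an established line of mouse fibroblasts, that had been transfected for 48 h with GapmeR Ntep or with GapmeR control, each at 50 nM according to the labels. A GapmeR is a short antisense DNA strand with modified ends that marks its target RNA for cutting by RNase H, and Ntep is a long non-coding RNA that the study examined for its part in fibroblast proliferation. Each of 3 independent experiments gave 1 array per GapmeR, so 3 arrays per group, and the targeting GapmeR is a single oligonucleotide sequence. The comparison asks how heat shock gene expression differs between both treatments.

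Heat shock proteins are molecular chaperones that bind unfolded or partly folded proteins, hold them in solution and pass them on for refolding or degradation. HSP70 proteins bind and release clients in a cycle that J-domain co-chaperones start and nucleotide exchange factors end, HSP90 completes the folding of kinases and hormone receptors, and small heat shock proteins hold unfolded proteins without using ATP. The transcription factor HSF1 becomes active when unfolded proteins accumulate and binds heat shock elements, which are inverted repeats of the letters GAA, in the promoters of many of these genes. HSP70 and HSP90 proteins are abundant also in unstressed cells, whereas Hspa1a and Hspa1b are low until stress induces them.

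Short windows around the heat shock element letters are printed because HSF1 binds such elements in the promoters of many heat shock genes. The RefSeq promoter table for GRCm38.p6, which holds 250 bases before and 50 bases after each annotated start, had entries for 7 of the 10 genes. It was searched for GAANNTTC and TTCNNGAA, each of which reads the same on both strands. Of the 7 genes, 6 held at least 1 match, all but Dnajb1, against 15.1% of the 32851 promoters in the table and 17% of its genes. The windows below hold 30 bases, 5′ to 3′ on the gene's strand, with the matched letters in capitals.
Hspb8, chr5:116422844-116422873, minus strand: agaagccaggaGAAGTTTCtaggctcgcga
Bag3, chr7:128523603-128523632, plus strand: ccaagttctctggatgggaccaGAAGTTTC
Hsph1, chr5:149636351-149636380, minus strand: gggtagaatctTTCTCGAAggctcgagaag
Hspb1, chr5:135887791-135887820, plus strand: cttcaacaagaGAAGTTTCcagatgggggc
Hspa1a, chr17:34972242-34972271, minus strand: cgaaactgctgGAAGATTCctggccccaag
Hspa1b, chr17:34959324-34959353, minus strand: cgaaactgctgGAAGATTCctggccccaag
Counted from the annotated start as base 1, the match began at base 3 in Hspb8 and at base 43 in Bag3, so in both it lay in the transcribed part. In Hsph1 the window shown began its match 33 bases before the start, and a further pair of overlapping matches began at bases 37 and 42. Together they gave Hsph1 a longer form of 3 such blocks in a row, each turned against the next at the same spacing. It was in 0.603% of promoters and in no other gene of the 7, but also in 4 genes of the wider chaperone lists below. The Hspb1 promoter had a second match 97 bases before its start. A match is a description of letters, and whether HSF1 bound there was not measured.

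The Hspa1a and Hspa1b windows are identical, and over the 300 bases of their promoter entries 296 positions (98.7%) were the same letter. The genes themselves are near-identical copies on chromosome 17, so the single probe named Hspa1a may also report Hspa1b, which was not tested. Its 60 bases are printed with those of a probe of the constitutive relative Hspa8, with the longest run that both share, 7 bases, in capitals.
Hspa1a probe: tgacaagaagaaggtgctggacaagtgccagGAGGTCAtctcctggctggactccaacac
Hspa8 probe: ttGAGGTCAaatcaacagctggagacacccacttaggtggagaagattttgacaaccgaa
These probes began at bases 1925 and 730 of their transcripts. They were taken from different parts of the transcripts, so the short shared run cannot show whether the Hspa1a probe tells the HSP70 genes apart. In mm9, the build of the array files, the Hspa1a probe lies at bases 35107117 to 35107176 of chromosome 17, minus strand. The Hspa8 probe lies at bases 40611142 to 40611201 of chromosome 9, plus strand. Gene models of that build were not used here, so exon and UTR positions of probes are not given.

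Between 43.7% and 53.3% of probes were well above background per array, and no probe was saturated. In experiments 1 to 3 the signal of the Ntep probe was 472, 91.5 and 226 where the label was GapmeR Ntep, and 271, 272 and 361 where it was GapmeR control. In experiment 1 it was therefore higher on the array labelled GapmeR Ntep, which is not the direction of a knockdown. The log2 difference over all arrays was -0.48 (SE 0.58, limma adjusted p = 0.632). With quantitative PCR, the paper reports efficient silencing of Ntep by this GapmeR. Within experiments 1 to 3, Hspb8 differed by 1.28, 1.00 and 1.12 and Hsf1 by -0.84, -0.57 and -0.75. These kept their direction in experiment 1, whereas Dnajb1, at -0.19, 0.20 and 0.22, did not. The cause of the Ntep value in experiment 1 was not tested. Of the 10 fibroblast markers examined, 8 were well above background on all 6 arrays. The summed signal of all 10 was 555035 to 735749 with GapmeR Ntep and 806595 to 888782 with GapmeR control. Of the 9 fibroblast markers tested, 8 were lower and 1, Thy1, was higher (0.05). None had an adjusted p under 0.05 (limma), and the differences were uneven, with Vim at -0.12 and Col3a1 at -0.81. Of 8 leukocyte markers, 3 were not well above background on any array, Ptprc and Adgre1 (named Emr1 in the files) among them, but Cd68 rose by 1.21 on the log2 scale (SE 0.17, limma adjusted p = 0.0287), and the summed signal was 33148 to 62865 against 15611 to 21328. Itgam made up most of that sum and differed by 1.26 (limma adjusted p = 0.0881), and Csf1r by 3.19 (limma adjusted p = 0.151). Of the 5 leukocyte markers tested, 4 were higher and 1, Lyz2, was lower (-0.18). These marker sums separated the groups, as did several genes below, and their part in those results was not tested. In bulk RNA, fewer cells of a type and less RNA per cell cannot be told apart.

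Within the heat shock genes, the small heat shock protein gene Hspb8 rose with GapmeR Ntep, about 2.20-fold. Hsph1 and Bag3 gave higher signals on every GapmeR Ntep array than on any GapmeR control array, and Hsf1 gave lower ones, but none of these 3 passed after adjustment in the unpaired test. Hspa8, Hsp90aa1 and Dnajb1, which like Hsph1 gave bright signals, differed by less than the spread between arrays, as did the dim Hspa1a. Of the 12 probes, 11 were bright enough to be tested. By adjusted p, 1 of the 11 passed, where 5.3% of all 30990 tested probes did (2.09% higher and 3.21% lower; 6.01% of 15241 genes with 1 probe each). By a fold of 2 with an unadjusted p under 0.01, the limits the study used, the same single probe passed, where 8.13% of all did (3.08% higher and 5.06% lower; 9.12% of genes).

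**Figure D1:**
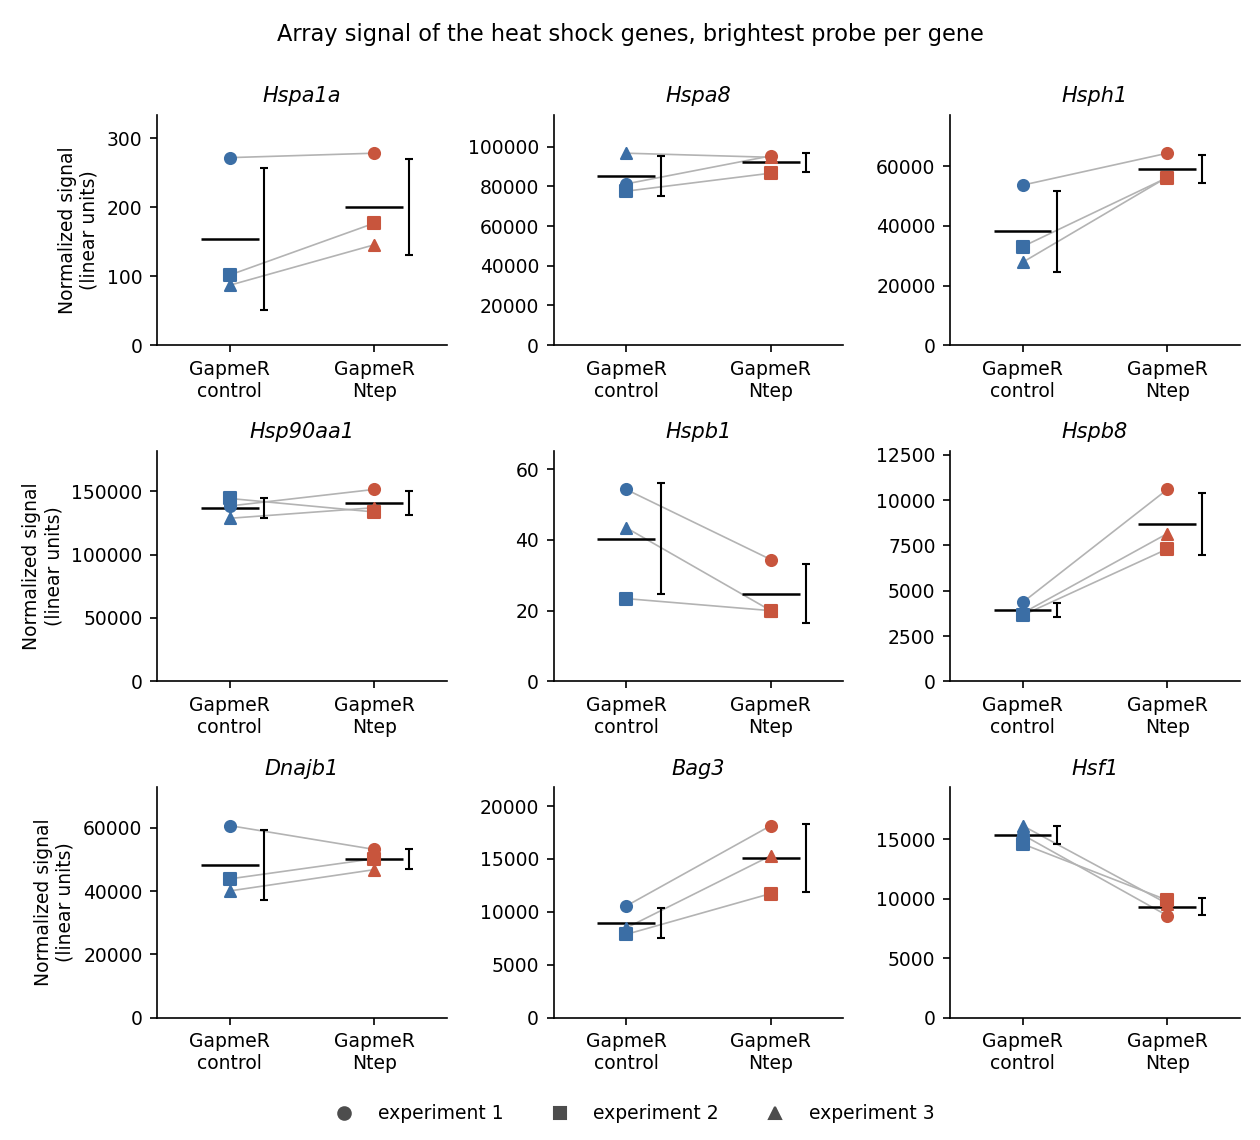
Normalized array signal on a linear scale from 0 for the brightest probe of each heat shock gene, with GapmeR control on the left and GapmeR Ntep on the right of each panel. Marker shapes give the 3 experiments, grey lines join arrays of 1 experiment, black bars give the mean and whiskers the SD (n = 3). All 3 GapmeR Ntep arrays lie above all GapmeR control arrays for Hspb8, Hsph1 and Bag3, and below them for Hsf1.

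The largest difference was that of Hspb8. Its probe in mm9 is at bases 116859063 to 116859122 of chromosome 5. HSPB8 works with BAG3 and HSP70 to deliver misfolded proteins to autophagy. Hspb8 had a signal of 10596, 7309 and 8157 on the GapmeR Ntep arrays of experiments 1 to 3, and of 4354, 3644 and 3762 on the GapmeR control arrays. The lowest GapmeR Ntep array thus lay well above the highest GapmeR control array, and within experiments the log2 difference was 1.28, 1.00 and 1.12. The mean ± SD over 3 arrays was 8687 ± 1706 with GapmeR Ntep and 3920.0 ± 380.5 with GapmeR control. This made a log2 difference of 1.13 (SE 0.20, 95% interval 0.64 to 1.63, limma adjusted p = 0.0386), and 0.0334 was the adjusted p in a fit that takes experiments as blocks. The call was close to its limit, since the adjusted p ranged from 0.0036 to 0.165 over 18 other ways of processing and passed in 9 of them. It was lost without array 1 of GapmeR Ntep (0.0687, where 1.76% of all probes passed) and without array 1 of GapmeR control (0.0693, where 0.452% passed), and with experiments 2 and 3 alone (0.0562, where 2.81% passed), while the log2 difference stayed between 0.98 and 1.25 in all 18. Without array 3 of GapmeR Ntep, or array 2 or 3 of GapmeR control, it was also lost, but there 0, 0 and 5 of all tested probes passed, so those fits say nothing about Hspb8 in particular.

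HSPB1 is the widely expressed small heat shock protein that also binds actin. Its probe gave 34.4, 20 and 20 with GapmeR Ntep, where 20 is the floor to which lower values were set, and 54.3, 23.4 and 43.5 with GapmeR control. It was well above background on none of the first and on 1 of the second arrays, and with a mean under 50 in both groups it was not tested. No fold is given for it.

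The HSP110 gene Hsph1, whose protein is a nucleotide exchange factor for HSP70, was covered by 2 probes on chromosome 5, at bases 150419744 to 150419803 and 150420110 to 150420169 of mm9. The brighter one had a signal of 64404, 56226 and 56389 with GapmeR Ntep and of 53682, 33046.5 and 27781 with GapmeR control. The other had 43147, 33023 and 35068 against 27683, 17968 and 16440 in the same order. On both probes the groups did not overlap, and the array of experiment 1 was the brightest of its group. The log2 difference was 0.68 on the brighter probe (SE 0.28, 95% interval 0.01 to 1.36, limma adjusted p = 0.196), and 0.0977 was its adjusted p with experiments as blocks. On the second probe it was 0.87 (SE 0.26, 95% interval 0.25 to 1.49, limma adjusted p = 0.104), and this probe passed with experiments as blocks (adjusted p = 0.0452). Within experiments the differences of the brighter probe were 0.26, 0.77 and 1.02, and those of the second 0.64, 0.88 and 1.09.

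Hspa8 encodes the constitutive cytosolic HSP70, which also strips clathrin from vesicles. The brightest of its 3 probes had a signal of 95396, 86696 and 94689 with GapmeR Ntep and of 81271, 77604 and 96754 with GapmeR control. These groups overlapped. The log2 difference was 0.12 (SE 0.17, 95% interval -0.29 to 0.53, limma adjusted p = 0.683). The other probes gave -0.10 (95% interval -0.51 to 0.32) and -0.05 (95% interval -0.60 to 0.51), with overlap in both, so the 3 probes differed in sign but not beyond their errors.

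The stress-inducible HSP70 gene Hspa1a was dim. Its probe had a signal of 279, 177 and 146 with GapmeR Ntep and of 272, 102 and 86.9 with GapmeR control. In experiment 1 both arrays were nearly equal and the brightest of their group, and in experiments 2 and 3 the GapmeR Ntep array was the higher one, with log2 differences of 0.03, 0.80 and 0.75. Over all arrays the groups overlapped, and the difference was 0.53 (SE 0.50, 95% interval -0.68 to 1.74, limma adjusted p = 0.537). With experiments as blocks the SE was 0.22 and the limma adjusted p = 0.172, so it did not pass there either. The wide unpaired interval, which includes the spread between experiments, takes in the difference seen for Hspb8.

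Hsp90aa1 encodes the inducible cytosolic HSP90. Its signal was 151467, 133648 and 137031 with GapmeR Ntep and 138364, 144318 and 128666 with GapmeR control. The groups overlapped throughout, and the log2 difference of 0.04 (SE 0.16, 95% interval -0.35 to 0.42, limma adjusted p = 0.903) had an interval that leaves out a change of the size of Hspb8's.

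Among the co-chaperones, BAG3 is the nucleotide exchange factor that joins HSP70 to HSPB8. Its probe is at bases 135690281 to 135690340 of chromosome 7. Bag3 had a signal of 18154, 11731 and 15310.0 with GapmeR Ntep and of 10544, 7863 and 8464 with GapmeR control. No array of one group reached into the other, and within experiments the log2 differences were 0.78, 0.58 and 0.86. Over all arrays the difference was 0.74, a 1.67-fold higher signal (SE 0.23, 95% interval 0.17 to 1.30, limma adjusted p = 0.119), and with experiments as blocks it passed (adjusted p = 0.0481).

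DNAJB1 is the J-domain protein that stimulates HSP70, and its gene is a classical target of HSF1. Dnajb1 had a signal of 53218, 50292 and 46822.5 with GapmeR Ntep and of 60761, 43887 and 40072 with GapmeR control. The groups overlapped, and the GapmeR control array of experiment 1 was the brightest of all. The log2 difference was 0.08 (SE 0.21, 95% interval -0.44 to 0.59, limma adjusted p = 0.845), and within experiments it was -0.19, 0.20 and 0.22.

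Hsf1, the gene of the regulator itself, gave the only difference below 0 whose groups did not overlap. The probe is at bases 76331320 to 76331379 of chromosome 15. Its signal was 8573, 9871 and 9578 with GapmeR Ntep and 15379, 14609 and 16149.5 with GapmeR control. Every GapmeR Ntep array lay under the lowest GapmeR control array, and within experiments the log2 differences were -0.84, -0.57 and -0.75. Over all arrays the difference was -0.72, a 1.65-fold higher signal in the controls (SE 0.16, 95% interval -1.10 to -0.34, limma adjusted p = 0.0558). It passed in 6 of the 18 other ways of processing, among them the fit with experiments as blocks (adjusted p = 0.0495). The array reports mRNA, and the activity of the HSF1 protein was not measured.

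**Figure D2:**
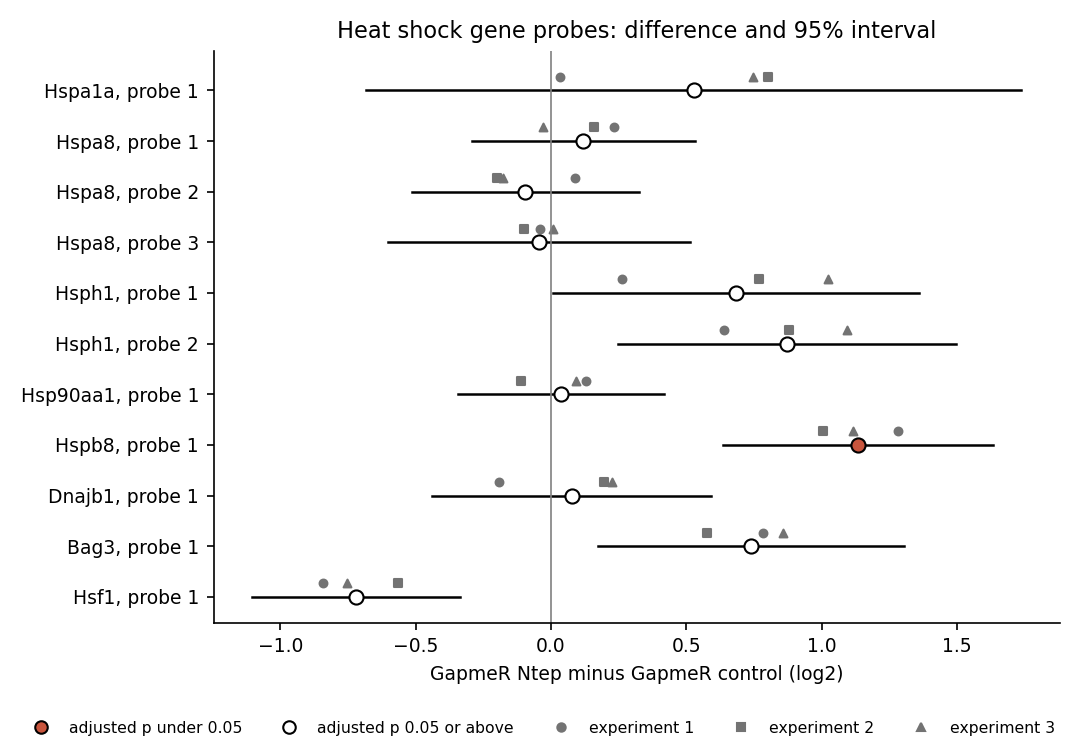
Log2 difference of GapmeR Ntep minus GapmeR control for the 11 tested probes, with 95% intervals as lines and the difference within each experiment as small grey markers; probes of a gene are numbered from the brightest. The filled point is Hspb8 at 1.13, the 1 probe with an adjusted p under 0.05, and the intervals of both Hsph1 probes, Bag3 and Hsf1 also leave out 0.

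As a group, 8 of the 11 tested probes were higher with GapmeR Ntep, against 54.5% of all tested probes, and the groups did not overlap on 5 of them, against 32.1% of all tested probes. With the brightest probe per gene, 7 of the 8 tested genes were higher, against 50.2% of 15241 genes, and 4 did not overlap, against 36.2%. The median log2 difference of the 8 genes was 0.32, beside 0.00 over all genes. It was 0.18 without array 1 of GapmeR Ntep and 0.56 without array 1 of GapmeR control. Among the 30990 tested probes, the difference of Hspb8 stood at percentile 94.8, that of Bag3 at percentile 87.1 and that of Hsf1 at percentile 15.8. With experiments as blocks, 4 of the 11 probes passed in place of 1, and over all probes 13.8% passed in place of 5.3%.

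Profiles over the 6 arrays, each centred on its own mean, were set side by side by the root mean square of their log2 distances. Of the heat shock genes, only probes whose groups did not overlap were taken. Those that rose thus lie close to each other, and far from Hsf1, in part by that choice, and shared regulation was not tested. Bag3 lay 0.23 from the brighter and 0.17 from the second Hsph1 probe, Hspb8 lay 0.33 and 0.21 from the same probes and 0.21 from Bag3, and Hsf1 lay 0.96 from Hspb8. The genes nearest to Hspb8 among probes well above background on every array were Alkbh5, an RNA demethylase (0.056), Per1, a circadian clock gene (0.0583), and Utp23 (0.061). This is a description of closeness over 6 arrays that differ by treatment.

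The wider chaperone system was read from lists of 76 other cytosolic and mitochondrial genes, of which 70 were tested. In all, 52 were higher and 18 lower with GapmeR Ntep, 25 did not overlap, and the median log2 difference was 0.14. Over all genes 50.2% were higher and 36.2% did not overlap, so the count without overlap was near that of the array as a whole. After adjustment, 1 rose and none fell, where 2.33% of all tested genes rose and 3.68% fell. The gene that rose was Dedd2, a death effector domain gene placed among heat shock responsive genes. It had a signal of 34506.5, 20716 and 26502 with GapmeR Ntep and of 9333, 10953 and 11307 with GapmeR control, without overlap, and its log2 difference was 1.34 (SE 0.24, limma adjusted p = 0.0366).

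Zfand2a, a stress-induced gene for a protein that acts at the proteasome, had the largest difference above 0 of these 70 genes. Its signal was 76635, 32241 and 39166 with GapmeR Ntep and 26149.6, 14189.7 and 13929 with GapmeR control. The groups did not overlap, and the log2 difference was 1.41 (SE 0.42, limma adjusted p = 0.106). Ier5, in the same list of 6, gave 0.65 (adjusted p = 0.119 in limma), while the ubiquitin gene Ubb gave -0.10. The collagen chaperone gene Serpinh1 gave -0.10.

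All 10 other J-domain co-chaperone genes tested were higher with GapmeR Ntep, with a median log2 difference of 0.42, from 0.06 for Dnaja1 to 0.93 for Dnajb5. The groups did not overlap for 5 of them. Over all genes, 50.2% were higher and 36.2% did not overlap. None passed after adjustment, and the smallest adjusted p was 0.0733, for Dnajb5 (SE 0.23, limma). Dnajb4 gave 0.82 and Dnajb6, a suppressor of protein aggregation, gave 0.62.

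Of the 8 other nucleotide exchange factors and HSP70 partners, 6 were higher and none passed. Bag2 gave 0.67 (limma adjusted p = 0.0901) and Bag4, which silences death receptors, 0.62, whereas Stub1, the ubiquitin ligase CHIP, gave -0.26. Among 15 genes of HSP90 and its co-chaperones the median was 0.16, and Unc45a, a chaperone of myosin, gave the highest value at 0.71 (limma adjusted p = 0.0733). Ppid, a peptidyl-prolyl isomerase bound to HSP90, gave the lowest at -0.48, and the constitutive Hsp90ab1 gave 0.06.

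Of the other HSP70 and HSP110 genes 4 were higher and 2 lower (median 0.09), and of the other small heat shock protein genes 3 were higher and 3 lower (median -0.01). Hspa12b, a distant HSP70 relative, had a signal of 540.0, 1345 and 903 with GapmeR Ntep and of 2005, 2626 and 2609 with GapmeR control, and a log2 difference of -1.46 (SE 0.36, limma adjusted p = 0.0702). Hspb2, a muscle-enriched small heat shock gene beside Cryab, had 5284, 11503 and 9542 against 19159.9, 20230.1 and 22075.6, and a difference of -1.29 (SE 0.31, limma adjusted p = 0.0696). Neither overlapped and both passed the fold and unadjusted p limits, but not the adjusted one. The highest values in the same lists were those of Hspa13, at 0.67 without overlap (limma adjusted p = 0.116), and Hspb6, at 0.45 (adjusted p = 0.388), while Cryab gave 0.07 and Hspa14 gave 0.03. The summed signal of 4 skeletal muscle markers was 146 to 335 with GapmeR Ntep and 333 to 907 with GapmeR control, and its part in the value of Hspb2 was not tested.

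The TRiC chaperonin, which folds actin and tubulin, ranged only from -0.35 for Cct3 to 0.30 for Cct4, with a median of 0.10 over 8 subunits. Of the other HSF genes and their partners, 4 of 6 were tested and none passed, with Hsf2 at -0.19 and Hsf5 at 0.55. In mitochondria, the HSP60 gene Hspd1 gave 0.04 and Hspa9 -0.19, whereas the nucleotide exchange factors Grpel1 and Grpel2 gave 0.54 and 0.87 (limma adjusted p = 0.0874 and 0.0803).

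For comparison outside the cytosol, 14 chaperone genes of the endoplasmic reticulum had a median of 0.08, with 8 higher and 6 lower. Dnajb9, an ER J-domain gene induced by unfolded proteins, rose by 1.58 on the log2 scale (SE 0.19, limma adjusted p = 0.0243). The central ER chaperone Hspa5 gave 0.20 and the lectin chaperones Canx and Calr gave -0.50 and -0.40.

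**Figure D3:**
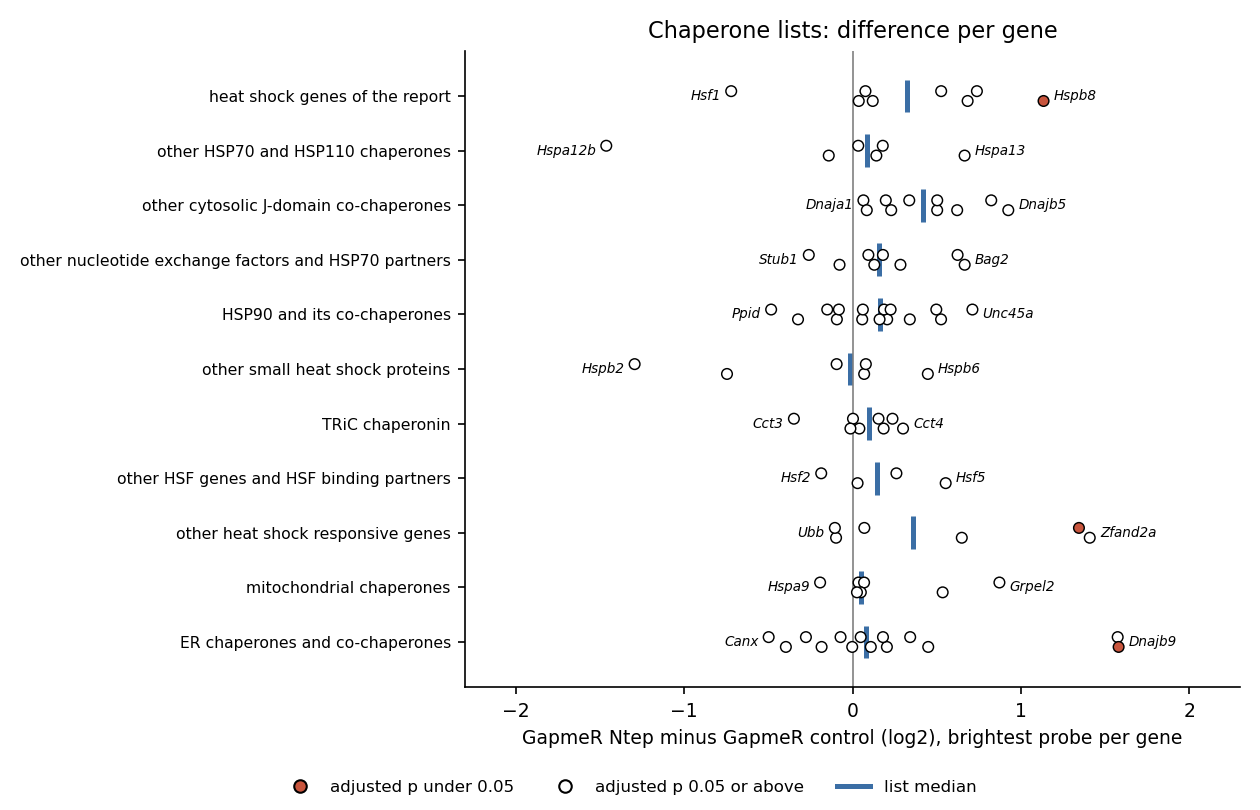
Log2 difference of GapmeR Ntep minus GapmeR control for each tested gene by list, with the brightest probe per gene, list medians as blue bars and the highest and lowest gene of each list named. Filled points have an adjusted p under 0.05 (Hspb8, Dedd2 and Dnajb9), and the J-domain list lies wholly above 0.

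The heat shock element letters searched in the promoters were counted in these lists too. Of the 61 genes of the 76 with a promoter entry, 17 held GAANNTTC or TTCNNGAA, against 17% of all genes with an entry. The letters were in 4 of 8 J-domain, 3 of 7 TRiC, 2 of 5 mitochondrial and 2 of 6 other small heat shock protein genes. They were in 3 of 12 HSP90 genes, 1 of 6 exchange factors and partners, and 1 of 5 HSF genes. Of the other heat shock responsive genes 1 of 5 held them, and of the other HSP70 and HSP110 genes 0 of 7. The ER list held them in 0 of 12. The longer form of 3 blocks in a row was in 4 of the 61 genes, against 0.662% of all genes with an entry. These were 1 J-domain, 1 HSP90 and 2 mitochondrial genes. Lists this small were not compared by a test.

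**Figure D4:**
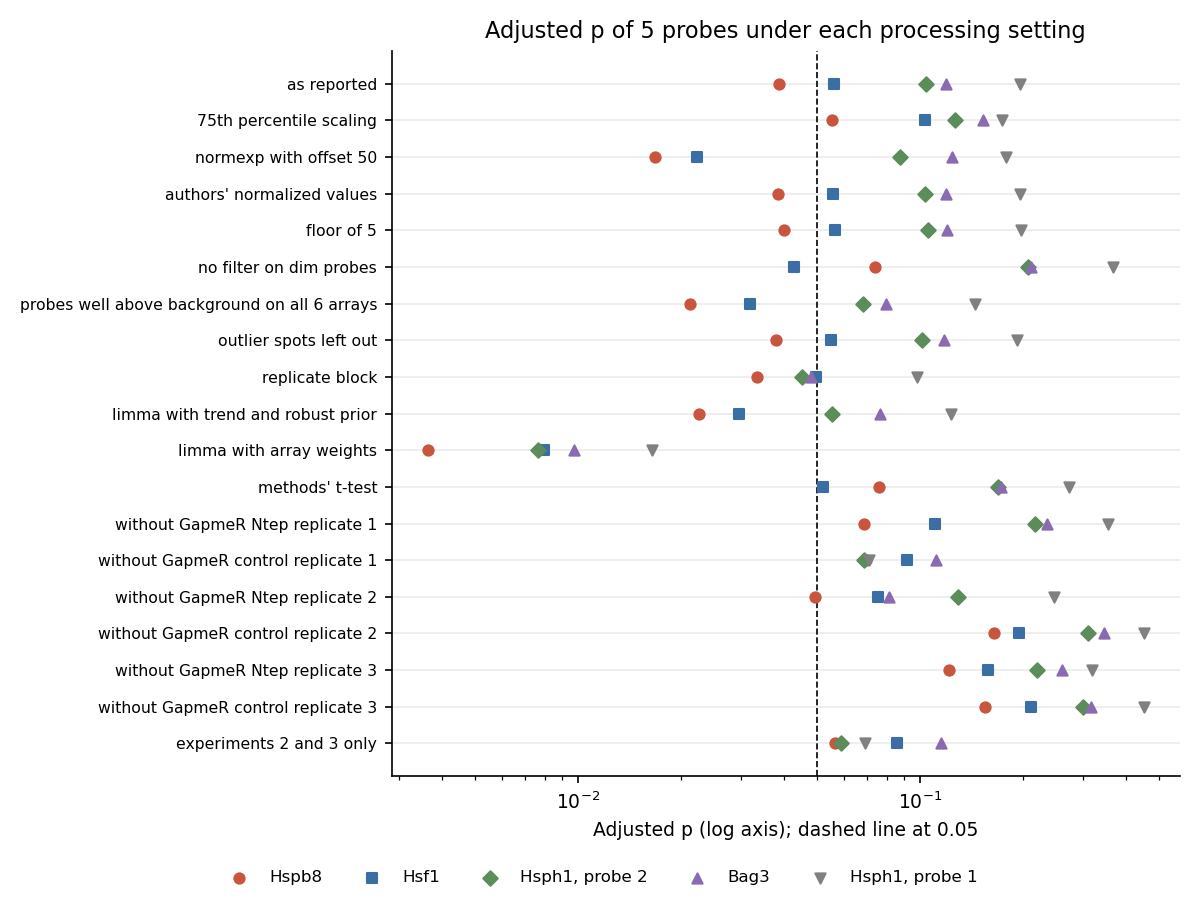
Adjusted p, on a log axis, of the 5 probes whose groups did not overlap, under each processing setting, with a dashed line at 0.05. Hspb8 lies left of the line in the fit as reported and in 9 of the 18 other settings, Hsf1 in 6, and Bag3 and the second Hsph1 probe in 2 each.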

How the data were processed

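The authors extracted 1-colour Agilent scans with Feature Extraction (10.7.3.1, per the submitters' processing notes) and deposited background-subtracted intensities per array, plus a table of quantile normalized intensities with values under 20 set to 20. Here, spots of 1 probe were averaged, arrays quantile normalized, values under 20 set to 20 and log2 values compared, unpaired and two-sided, with limma (3.58.1, under R 4.3.3, files read by data.table, version 1.17.8). The test took in probes whose mean reached 50 in either group, and p-values were adjusted over all of them (Benjamini-Hochberg). Every member value lay within 0.023 (log2) of the deposited table, but over all probes the largest distance was 9.35. With the deposited values, 5.37% of all tested probes passed by limma adjusted p, beside 5.3% as reported. Replicate numbers pair the arrays: the study's supplementary lists pair them by experiment, and residuals of paired arrays correlated at 0.466, 0.300 and 0.254, others at -0.327 to 0.126. With 3 arrays per group an exact permutation p cannot fall below 0.1. The named genes were all members, Ntep, and from each list those passing or, failing that, its extremes. Further genes were named after their values were seen, and members and lists were chosen with earlier results of these data known. The steps were tested on simulated data.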

Additional observations from a re-analysis of the deposited data

How the results depend on the processing

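Over 18 other settings, the log2 differences of Hspb8, Bag3, both Hsph1 probes and Hsf1 kept their direction, while counts of calls moved with the test. As reported, 1 heat shock probe passed by adjusted p, 1 by fold 2 with p under 0.01, the median of the genes was 0.32, and 2 genes of the other chaperone lists passed, ER list included. By adjusted p, 0 heat shock probes passed with 75th percentile scaling (3.86% of all probes), the methods' t-test (0.92%), or experiments 2 and 3 alone, a setting chosen after seeing the data. Without the filter on dim probes 1 passed (1.01% of all probes), but it was Hsf1 (limma adjusted p = 0.0428) in place of Hspb8. There were 2 with normexp (offset 50), with probes well above background on all 6 arrays, and with a trend and robust prior. There were 4 with the replicate block and 5 with array weights, which also gave 2 by fold (14.5% of all probes). Other chaperone genes that passed numbered 4 with normexp, 7 with probes well above background, 7 with the replicate block, 9 with the trend, 24 with array weights and 0 with experiments 2 and 3 alone. Over all probes the share that passed moved too, to 4.18%, 11%, 13.8%, 8.61%, 33.1% and 2.81% in these settings, beside 5.3% as reported. The median was 0.10 with normexp and 0.12 without the filter on dim probes, both of which add Hspb1 to the genes tested. It was 0.50 with 75th percentile scaling, which moved all genes by 0.15, so 0.35 relative to that shift. That scaling turned the dimmer Hspa8 probes to 0.14 and 0.19, or -0.01 and 0.04 relative to the shift. Leaving out 1 array at a time gave 0 to 1 heat shock probes by adjusted p and 0 to 3 other chaperone genes. The share of all probes that passed ran from 0 to 4.49% in these fits. By fold it gave 0 to 2 heat shock probes, 0 without GapmeR Ntep 1 (6.79% of all probes) and 2 without GapmeR control 1 (8.7%). Medians ran from 0.18 (without GapmeR Ntep 1) to 0.56 (without GapmeR control 1). The adjusted call of Hspb8 held only without GapmeR Ntep 2 (0.0493), but 0 probes on the whole array passed without GapmeR Ntep 3 or GapmeR control 2, and 5 without GapmeR control 3. Some differences near 0 changed sign when arrays were left out: the dimmest Hspa8 probe ranged from -0.18 to 0.11 (0.07 without GapmeR Ntep 1, 0.11 without GapmeR control 2), Hsp90aa1 from -0.017 (without GapmeR Ntep 1; -0.0082 without GapmeR control 3) to 0.075 and -0.00998 with experiments 2 and 3 alone, and Dnajb1 from -0.045 (without GapmeR control 3) to 0.25. The Ntep probe ranged from -1.06 to 0.13 (without GapmeR Ntep 2). The causes of these moves were not tested, other than the genes each setting adds. Intervals are wide at 3 arrays per group, and Hspb1 lay too near background to be compared.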
